A study of Danio rerio with 12 samples.

Results

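Kinesins and dyneins are the motor proteins that carry cargo along microtubules, and their transcripts were described in the adult zebrafish retina. The set holds every gene whose symbol in the deposited table begins with kif followed by a digit or c, klc followed by a digit, dync, dynl, dnah, dnai or dnal. It comprised 59 of 32674 genes. Of the 59, 52 had a mean of at least 0.5 FPKM (fragments per kilobase of gene model, scaled to the sequencing depth) over the libraries and were tested. One gene of the set, kif1bp, encodes a protein that binds kinesins and is not itself a motor. Nearest to the threshold lay kif20bb (0.455 FPKM) and dnah12 (0.497 FPKM) outside, and dnah7 (0.758 FPKM) and dnah5 (0.802 FPKM) inside.

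The fish were of the EK strain and came from a pair of lineages. Eggs of the F1 generation were held for 24 h in 0.03 µM methylmercury (MeHg) or in 0 µM MeHg, each with ethanol as vehicle. Their F2 and F3 descendants met no added MeHg, and the adult F3 fish gave the retinas. The comparison asks whether the retinal transcriptome differs between descendants of exposed and unexposed fish. Of 12 labelled samples, 6 per lineage and described by the submitters as biological replicates, 11 were analysed, namely control libraries 3, 4, 5, 7 and 8 and MeHg libraries 2 to 7. The labels name neither pooling of fish, nor their sex, nor the hour of collection.

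Most kinesins walk towards the plus ends of microtubules, outward along an axon, and cytoplasmic dynein walks towards the minus ends, back to the cell body. In photoreceptors a heterotrimeric kinesin-2 moves material into the outer segment along its cilium and dynein-2 returns it. Other kinesins act on the mitotic spindle, and axonemal dyneins drive the beat of motile cilia.

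The libraries held 2838155 to 5663021 assigned fragments in the control lineage and 4354466 to 6749645 in the MeHg lineage, as implied by the companion table of scaled fragment numbers. Control libraries 5 and 7 stood apart by oocyte transcripts. The summed level of the oocyte list, of which 18 of 24 genes were in the table, was 2105 FPKM in control library 5 and 4062 FPKM in control library 7, against 2.11 to 10.7 FPKM in the other control libraries and 0.980 to 4.98 FPKM in the MeHg libraries. The main counts are therefore also given without these libraries. The summed rod list was at 8746 to 27574 FPKM in the control lineage and 5758 to 7687 FPKM in the MeHg lineage, and the summed cone list at 5404 to 15666 FPKM and 9186 to 12014 FPKM. In the control libraries rho alone was at 6346 to 20297 FPKM, and it was at 0 in the MeHg libraries. The lower rod sums of the MeHg lineage therefore do not describe the other rod genes. Of 7 rod genes tested, none rose and 3 fell, beside 5.47% and 3.5% of all genes. Those that fell were the opsin gene rho, listed at 0 in every MeHg library, sagb (log2 difference -2.68, limma adjusted p = 1.16e-04) and nr2e3 (-1.12, limma adjusted p = 0.0280). The genes gnat1, pde6a, pde6b and cnga1 were not called. Their log2 differences were positive, at 0.96, 0.59, 0.24 and 0.46. Without control libraries 5 and 7 they were 0.55, 0.16, -0.15 and -0.0163. Of 5 cone genes tested, 2 rose (opn1sw2 and opn1lw1) and 1 fell (arr3a), beside the same shares of all genes. The part of these rod and cone markers in the motor gene differences was not tested. In whole retinas, fewer cells of a type and less RNA per cell cannot be told apart. Whether the 0 values of rho arose in the retinas or in the making of the deposited values was not tested. The clock gene per1b, whose transcript cycles daily, was at 36.6 ± 15.9 FPKM (n = 5, SD) in the control lineage and 0.649 ± 0.264 FPKM (n = 6, SD) in the MeHg lineage, and the part of daily phase in the motor gene differences was not tested.

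Where a pair of means is given, the control lineage comes first. The most abundant motor transcript was kifc3, which encodes a minus-end-directed kinesin of the kinesin-14 family, with a mean of 171.9 FPKM over the 11 libraries. It was followed by the dynein light chain genes dynll1 (118 FPKM) and dynlrb1 (89.1 FPKM). Next came kif1b (56.6 FPKM), a kinesin-3 gene whose mouse proteins carry mitochondria and synaptic vesicle precursors, dynlt3 (54.0 FPKM) and kif5ba (52.9 FPKM), a kinesin-1 heavy chain gene. These are levels per gene length and can be set beside each other. At the low end, 7 genes missed the threshold, namely kif17, kif16bb, kif20bb, kif6, dnah11, dnah12 and dnali1. Of these, kif6 was above 0 in control library 7 alone (0.114 FPKM), and the kinesin-2 gene kif17 reached at most 0.385 FPKM in any library.

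**Figure D1:**
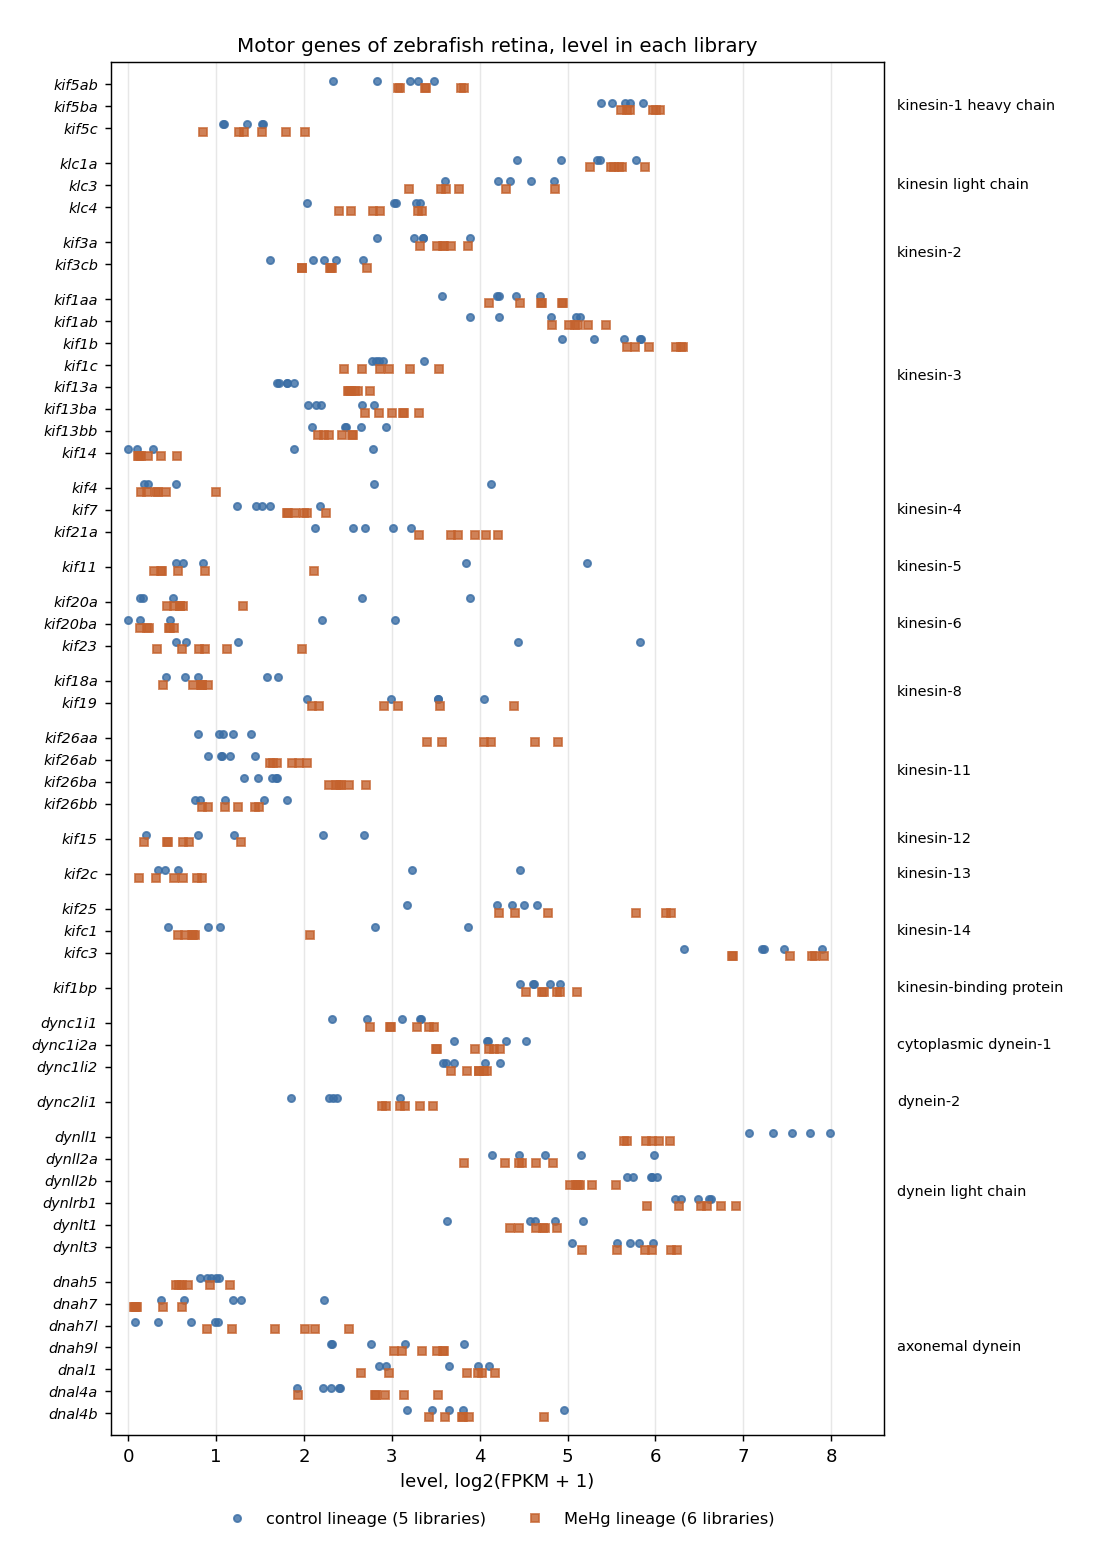
Level of each of the 52 tested motor genes in every library, as log2(FPKM + 1) on the horizontal axis, with a row for each gene. Circles are the 5 control libraries and squares the 6 MeHg libraries. The gene kifc3 lies highest, and most mitotic kinesins have their highest points in control libraries 5 and 7.

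Between the lineages, 10 of the 52 tested motor genes were called (limma on log2(FPKM + 1), Benjamini-Hochberg adjusted p under 0.05 over all genes tested), or 19.2%, against 8.98% of all 20320 genes. Of the 10, 8 were higher in the MeHg lineage, a direction in which 5.47% of all genes were called: kif26aa, kif26ab, kif26ba, kif13a, kif13ba, kif21a, dync2li1 and dnah7l. The other 2, dynll1 and dynll2b, were lower, as were 3.5% of all genes. In 7 of the 52 genes, or 13.5%, the values of the lineages did not overlap, against 7.52% of all genes. The median log2 difference was 0.09 over the 52 genes and 0.02 over all genes, and without control libraries 5 and 7 it was 0.04 over 48 motor genes and -0.00316 over all genes. The 52 include 10 mitotic kinesins, 5 of which entered the test only through control libraries 5 and 7. Over the other 42 genes the median was 0.20. Over the 43 such genes tested without those libraries it was 0.0355. Without control libraries 5 and 7, 7 of 48 tested motor genes were called (14.6%, against 8.28% of all 19697 genes), 5 higher (all genes, 3.64%) and 2 lower (all genes, 4.65%). All 7 were among the 10, and kif13ba, dync2li1 and dnah7l were not called there.

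**Figure D2:**
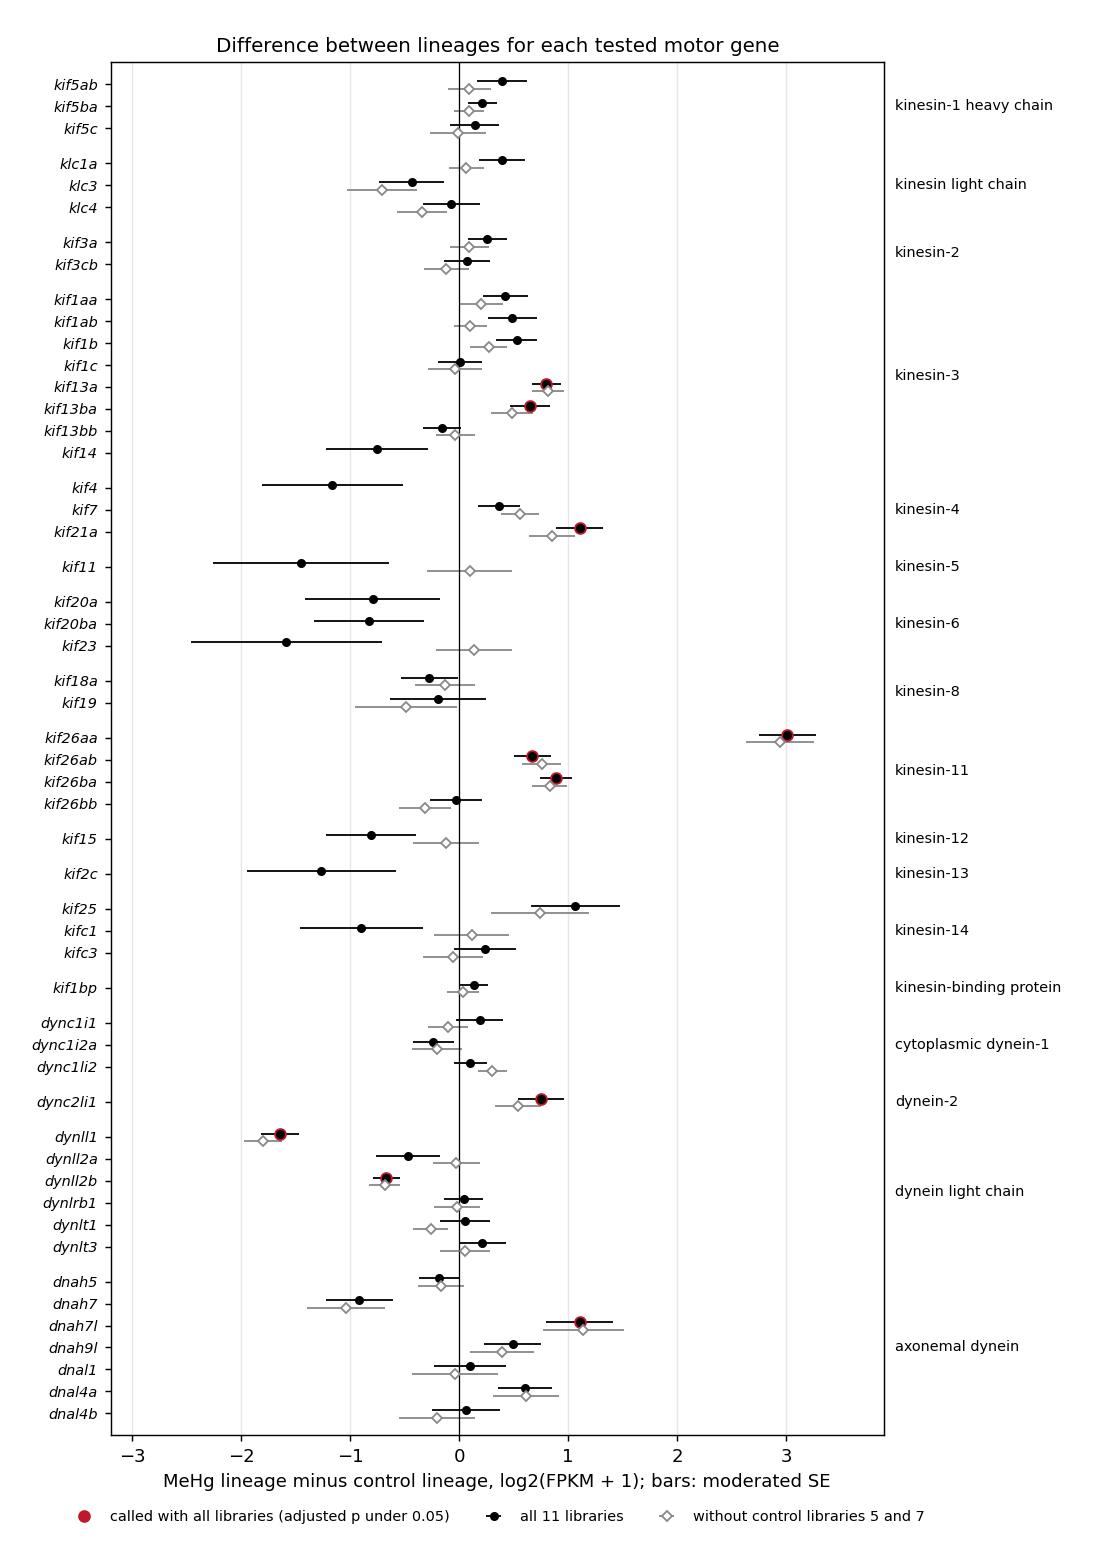
Difference between the lineages for the 52 tested motor genes, MeHg minus control on the log2(FPKM + 1) scale, with bars of 1 moderated standard error. Filled points use all 11 libraries, red ones being the 10 called genes, and open diamonds leave out control libraries 5 and 7. The difference of kif26aa (3.01) is the highest and that of dynll1 (-1.65) the lowest.

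In the kinesin-11 family 3 of 4 genes rose and none fell, beside 5.47% and 3.5% of all genes. Kinesin-11 proteins are divergent kinesins that bind microtubules with little or no motor activity. In the mouse, KIF26A restrains growth factor signalling in enteric neurons and KIF26B is needed for kidney development. The transcript of kif26aa (ENSDARG00000042368) was at 1.04, 1.63, 1.29, 0.742 and 1.12 FPKM in control libraries 3, 4, 5, 7 and 8, and at 9.59, 16.02 and 28.6 FPKM as the lowest, median and highest of the MeHg lineage. All 6 MeHg libraries were above all 5 control libraries, and MeHg libraries 5 (23.8 FPKM) and 6 (28.6 FPKM) were the highest. The means were 1.16 ± 0.328 FPKM (n = 5, SD) and 17.5 ± 7.40 FPKM (n = 6, SD), and the log2 difference was 3.01 with a standard error of 0.26 (limma adjusted p = 2.50e-05), or 8.06-fold on this scale. The added 1 FPKM lowers the fold of a gene with so low a control level: with 0.1 FPKM added instead, the log2 difference was 3.73. The control values rested on 28 to 56 implied fragments per library and the MeHg values on 474 to 1296.

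The gene kif26ab (ENSDARG00000015016), the other counterpart of mammalian KIF26A, was at 1.09, 0.876, 1.09, 1.72 and 1.24 FPKM in the control libraries and at 2.07, 2.43 and 3.11 FPKM as lowest, median and highest in the MeHg lineage. The groups did not overlap, and the log2 difference was 0.67 with a standard error of 0.17 (limma adjusted p = 0.0259). For kif26ba (ENSDARG00000013343), a counterpart of KIF26B, the control values were 1.78, 2.22, 2.103, 1.501 and 2.21 FPKM, and the lowest, median and highest MeHg values 3.87, 4.32 and 5.51 FPKM. Every MeHg library again lay above every control library, the log2 difference being 0.89 with a standard error of 0.15 (limma adjusted p = 0.00266). The remaining gene, kif26bb, was at 1.41 ± 0.786 FPKM (n = 5, SD) and 1.29 ± 0.423 FPKM (n = 6, SD), with overlapping values and a log2 difference of -0.03. Without control libraries 5 and 7, kif26aa, kif26ab and kif26ba were again called, with log2 differences of 2.94, 0.76 and 0.83. The log2 difference of kif26ab was no longer past the threshold without control library 4, control library 5, MeHg library 2 or MeHg library 7, with limma adjusted p of 0.0566, 0.0663, 0.0614 and 0.0631.

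Most kinesin-3 genes encode long-distance carriers of vesicles. Of 8 tested, 2 rose and none fell, beside 5.47% and 3.5% of all genes. The 8 include kif14, a mitotic kinesin. The transcript of kif13a (ENSDARG00000069594), whose mouse protein moves receptors from the Golgi apparatus to the cell surface, was at 2.25, 2.28, 2.51, 2.49 and 2.70 FPKM in the control libraries and at 4.67, 4.89 and 5.75 FPKM as lowest, median and highest in the MeHg lineage. The groups were separate and each varied little, the log2 difference being 0.80 with a standard error of 0.13 (limma adjusted p = 0.00229). For kif13ba (ENSDARG00000079731), a counterpart of human KIF13B, the control values were 5.95, 5.35, 3.58, 3.13 and 3.42 FPKM, and the lowest, median and highest MeHg values 5.49, 7.37 and 8.90 FPKM. MeHg library 3, the lowest, was below control library 3. The log2 difference of 0.65 with a standard error of 0.18 (limma adjusted p = 0.0455) was past the threshold in 7 of 20 alternative fits, over which it ran from 0.48 to 0.76. Leaving out any single library but control 3, control 4 or MeHg 3 ended the call. Its paralogue kif13bb was at 4.87 ± 1.23 FPKM (n = 5, SD) and 4.20 ± 0.598 FPKM (n = 6, SD), and was not called.

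The kinesin-3 genes known for carrying synaptic vesicle precursors did not pass the test. The log2 differences were 0.43 for kif1aa, 0.49 for kif1ab and 0.53 for kif1b, with limma adjusted p of 0.234, 0.208 and 0.117. Without control libraries 5 and 7 they were 0.20, 0.10 and 0.27. In the control lineage these genes were lowest in library 7, at 10.9 FPKM for kif1aa, 13.8 FPKM for kif1ab and 29.7 FPKM for kif1b. With quantile normalization kif1b was called higher (limma adjusted p = 0.0324). The levels of kif1c were 6.78 ± 1.45 FPKM (n = 5, SD) and 6.97 ± 2.19 FPKM (n = 6, SD).

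In the kinesin-4 family 1 of 3 tested genes rose, beside 5.47% of all genes, and a single gene is no result about the family. The protein of kif21a (ENSDARG00000061131) restrains microtubule growth, and the human gene is altered in a congenital disorder of eye movement. Its control values were 8.33, 7.06, 4.89, 3.37 and 5.47 FPKM, and its lowest, median and highest MeHg values 8.88, 13.5 and 17.5 FPKM. The lowest MeHg value, in library 3, was just above the highest control value, also in a library numbered 3. The log2 difference was 1.11 with a standard error of 0.22 (limma adjusted p = 0.00737), and 0.85 without control libraries 5 and 7 (limma adjusted p = 0.0322). Of the others, kif4 is a mitotic kinesin, and kif7, a regulator of Hedgehog signalling at the tip of the cilium, was at 2.11 ± 0.831 FPKM (n = 5, SD) and 2.94 ± 0.469 FPKM (n = 6, SD) (limma adjusted p = 0.257).

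**Figure D3:**
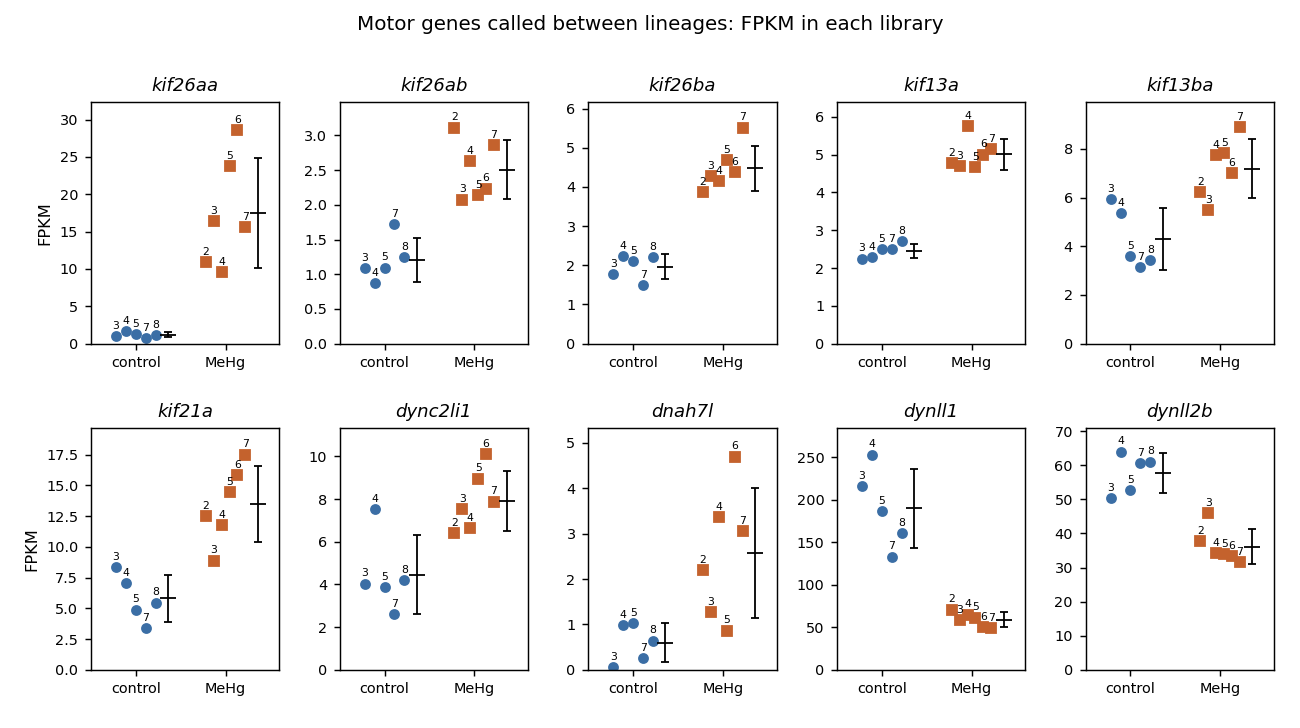
FPKM of the 10 called motor genes in each library, each panel starting at 0. Circles are control and squares MeHg libraries, labelled with the library number, and the bar beside each group is the mean with 1 SD. The groups overlap for kif13ba, dync2li1 and dnah7l and are separate for the other 7 genes.

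Of 6 dynein light chain genes 2 fell and none rose, beside 3.5% and 5.47% of all genes. Both that fell are of the LC8 type, whose proteins also bind many partners outside the motor. The transcript of dynll1 (ENSDARG00000058454) was at 216, 253, 187, 133 and 161 FPKM in control libraries 3, 4, 5, 7 and 8, and at 48.8, 59.8 and 70.7 FPKM as lowest, median and highest in the MeHg lineage. No value overlapped, and the lowest control library, number 7, was still above every MeHg library. The means were 189.8 ± 46.7 FPKM (n = 5, SD) and 59.03 ± 8.49 FPKM (n = 6, SD), and the log2 value fell by 1.65 with a standard error of 0.17 (limma adjusted p = 1.10e-04). The call held in 20 of 20 alternative fits, with log2 differences of -1.80 to -1.53. For dynll2b (ENSDARG00000005172), the control values were 50.3, 64.0, 52.8, 60.7 and 61.0 FPKM, and the lowest, median and highest MeHg values 31.6, 34.0 and 46.0 FPKM. These groups were separate as well, the log2 difference being -0.67 with a standard error of 0.13 (limma adjusted p = 0.00553). Its paralogue dynll2a was at 32.0 ± 18.1 FPKM (n = 5, SD) and 20.9 ± 4.87 FPKM (n = 6, SD), was not called, and had its highest value, 62.0 FPKM, in control library 7. LC8 proteins are nearly identical, and the labels do not say how fragments shared between gene copies were counted.

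The other light chain genes and the subunits of dynein-1, the axonal carrier towards the cell body, were not called. The roadblock light chain gene dynlrb1 was at 86.8 ± 11.1 FPKM (n = 5, SD) and 91.1 ± 21.7 FPKM (n = 6, SD). The Tctex-type genes dynlt1 and dynlt3 had log2 differences of 0.05 and 0.21 (limma adjusted p = 0.907 and 0.580). The intermediate chain genes dync1i1 and dync1i2a, whose products link the motor to dynactin, had log2 differences of 0.19 and -0.24, and the light intermediate chain gene dync1li2 one of 0.10.

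Dynein-2 was represented by dync2li1 (ENSDARG00000039770), which encodes a light intermediate chain of the motor that returns cargo from the tip of the cilium. Its control values were 4.03, 7.54, 3.88, 2.602 and 4.21 FPKM, and its lowest, median and highest MeHg values 6.42, 7.70 and 10.1 FPKM. Control library 4 lay inside the MeHg range and the other 4 control libraries below it. The log2 difference was 0.75 with a standard error of 0.21 (limma adjusted p = 0.0428), and ran from 0.54 to 0.93 over the alternative fits. Leaving out any single library but control 4 ended the call. It held in 5 of 20 alternative fits and not without control libraries 5 and 7 (0.54; limma adjusted p = 0.169). The control values rested on 15 to 37 implied fragments per library. Kinesin-2 includes the motor that runs the opposite way in the cilium, and its tested genes in the set were not called. The gene kif3a was at 9.38 ± 2.79 FPKM (n = 5, SD) and 11.2 ± 1.53 FPKM (n = 6, SD), and kif3cb at 3.71 ± 1.21 FPKM (n = 5, SD) and 3.88 ± 0.966 FPKM (n = 6, SD). The kinesin-2 accessory subunit gene kifap3b, outside the set, was called higher and is described with the kinesin adaptors.

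Of 10 axonemal dynein genes 7 were tested and 1 rose, beside 5.47% of all genes, and a single gene is no result about the family. That gene, dnah7l (ENSDARG00000000606), encodes a heavy chain, the ATPase subunit, and the reference list of gene names calls it DNAH6. It was at 0.0526, 0.990, 1.03, 0.264 and 0.642 FPKM in the control libraries and at 0.864, 2.62 and 4.70 FPKM as lowest, median and highest in the MeHg lineage. MeHg library 5, the lowest, overlapped the control range. The log2 difference was 1.11 with a standard error of 0.31 (limma adjusted p = 0.0448), past the threshold in 6 of 19 alternative fits, over which it ran from 0.92 to 2.08. Leaving out any single library but control 4, MeHg 3 or MeHg 5 ended the call. The control values rested on 2 to 27 implied fragments per library and the MeHg values on 59 to 136. Another heavy chain gene, dnah7, had a log2 difference of -0.92 (limma adjusted p = 0.0887), with 3.68 FPKM in control library 8 and at most 0.534 FPKM in the MeHg lineage. The value in control library 8 rested on 11 implied fragments, while control library 7 held 83 at 1.43 FPKM. The MeHg values rested on 3 to 13 implied fragments. The gene dnah7 was called lower without control library 3 (limma adjusted p = 0.0394). The most abundant axonemal genes encode light chains: dnal4b was at 14.6 ± 8.94 FPKM (n = 5, SD) and 14.4 ± 5.70 FPKM (n = 6, SD), and dnal1 at 11.1 ± 4.59 FPKM (n = 5, SD) and 12.1 ± 4.88 FPKM (n = 6, SD), and neither was called. The light chain gene dnal4a, with a log2 difference of 0.61 (limma adjusted p = 0.154), was called higher without MeHg library 4 (limma adjusted p = 0.0234).

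Mitotic kinesins build the spindle and divide the cell, and none of the 10 tested passed in either direction with limma, either adjusted or at an unadjusted p under 0.05. Of the 10, 5 (kif14, kif4, kif20a, kif20ba and kif2c) reached 0.5 FPKM only with control libraries 5 and 7 included, so no direction or median is read from the 10. In 9 of the 10, control libraries 5 and 7 were above every other library, the exception being kif18a. For the 5 genes named above the filter itself favoured this, so the count is no separate support. Of the genes that kept 0.5 FPKM without these libraries, kif11, kif15, kif23 and kifc1 had both above every other library and kif18a did not. The transcript of kif23, which acts at the spindle midzone in cytokinesis, was at 0.577, 0.456, 20.7, 55.6 and 1.39 FPKM in control libraries 3, 4, 5, 7 and 8, and at 0.257, 0.797 and 2.94 FPKM as lowest, median and highest in the MeHg lineage. For kif11, the motor that pushes spindle poles apart, control libraries 5 and 7 were at 13.4 and 36.3 FPKM, and the other 9 libraries between 0.230 and 3.32 FPKM. For kif2c, a microtubule depolymerase of the kinetochore, these libraries were at 8.40 and 20.9 FPKM, against at most 0.793 FPKM elsewhere. Control library 7 was the higher of the pair for each of the 10 genes.

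The other tested mitotic kinesins, save kif18a, followed the same libraries at lower levels. Control libraries 5 and 7 were at 5.96 and 16.5 FPKM for kif4, which acts on chromosomes and the midzone, and at 5.33 and 13.8 FPKM for kif20a, which acts in cytokinesis. They were at 5.98 and 13.6 FPKM for kifc1, a minus-end-directed spindle motor, and at 3.63 and 7.23 FPKM for kif20ba. For kif14 they were at 2.71 and 5.92 FPKM, and for kif15 at 3.66 and 5.44 FPKM. Over these 6 genes the other 9 libraries reached at most 3.19 FPKM, for kifc1 in MeHg library 4. For kif18a, control libraries 5, 7 and 8 were at 0.737, 2.26 and 1.99 FPKM, and the MeHg libraries at 0.321 to 0.881 FPKM. The untested kif20bb did not follow either, at 0.471 and 0.569 FPKM in control libraries 5 and 7 and 0.802 FPKM in MeHg library 3.

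The summed level of the 11 mitotic kinesins in the table was 70.9 FPKM in control library 5 and 178 FPKM in control library 7, 3.33 to 6.56 FPKM in the other control libraries and 3.54 to 16.4 FPKM in the MeHg lineage. The oocyte transcripts were high in the same control libraries, and their part in the kinesin levels was not tested. Without those libraries 5 of the mitotic kinesins kept a mean of 0.5 FPKM and none was called, with log2 differences of -0.13 to 0.14. Of 28 other spindle and cell cycle genes tested, none rose and 1 fell, beside 3.5% of all genes that fell. Among the 28, ccnb2, bub1bb and ect2 reached 0.5 FPKM only with control libraries 5 and 7 included, so no result is read from this share. Without those libraries none of 25 was called. The gene that fell was cenpe, a kinesin-7 gene of the kinetochore whose symbol lies outside the rule (log2 difference -1.53, limma adjusted p = 0.0188, and 0.0696 without control libraries 5 and 7). Within the MeHg lineage, library 4 was the highest for 8 of the 10 mitotic kinesins, at 3.32 FPKM for kif11 and 2.94 FPKM for kif23. The summed list of other spindle and cell cycle genes was at 145 FPKM in MeHg library 4, against 61.2 to 71.6 FPKM in the other MeHg libraries. The summed oocyte list was at 3.24, 1.42, 4.56, 4.98, 0.980 and 4.005 FPKM in MeHg libraries 2 to 7. In MeHg library 4, 15 of its 19 entries were at 0, and ccnb1, shared with the cell cycle list, was at 2.55 FPKM. The part of either list in that library's kinesin levels was not tested.

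**Figure D4:**
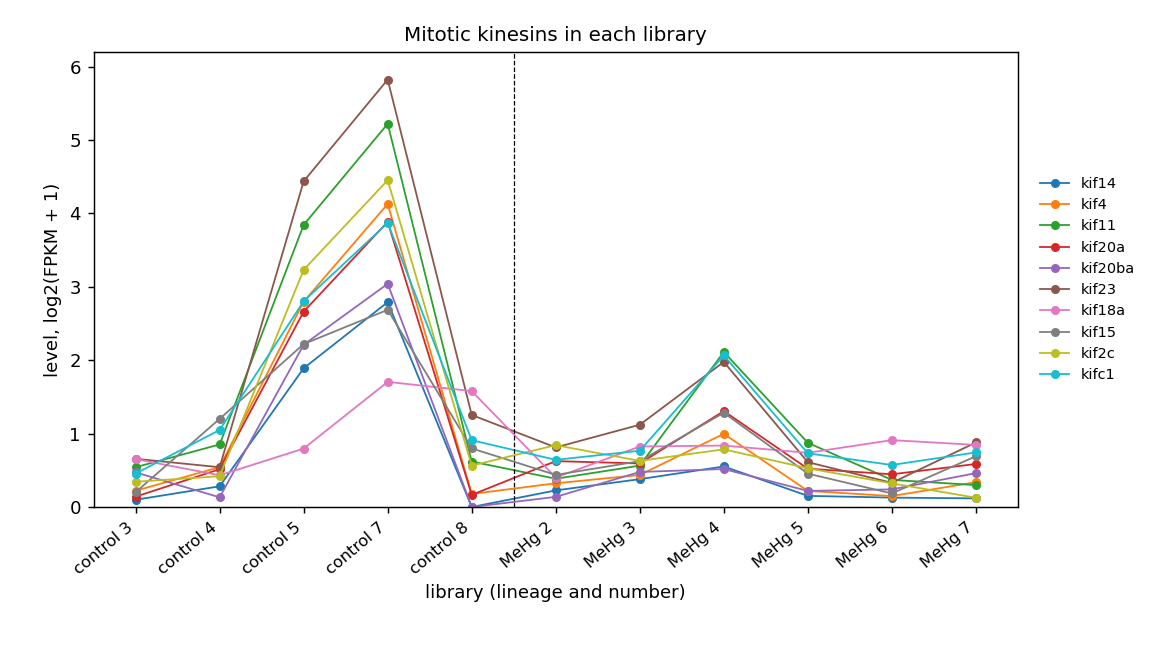
Level of the 10 tested mitotic kinesins in each library as log2(FPKM + 1), with a line for each gene. Control libraries 5 and 7 form the peak, up to 55.6 FPKM for kif23, and a lower rise stands at MeHg library 4.

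The abundant kinesin-1 genes overlapped between the lineages. The heavy chain gene kif5ba was at 48.6 ± 6.34 FPKM (n = 5, SD) and 56.6 ± 7.76 FPKM (n = 6, SD), a log2 difference of 0.21 (limma adjusted p = 0.340). Its relative kif5ab was at 7.48 ± 2.42 FPKM (n = 5, SD) and 9.95 ± 2.49 FPKM (n = 6, SD). None of the 3 kinesin light chain genes, whose products bind cargo for kinesin-1, was called: klc1a was at 36.7 ± 12.5 FPKM (n = 5, SD) and 46.6 ± 6.85 FPKM (n = 6, SD), and klc3 at 19.8 ± 6.22 FPKM (n = 5, SD) and 14.9 ± 7.33 FPKM (n = 6, SD). Control library 7 had the lowest control value in 26 of the 42 tested genes other than mitotic kinesins. The share over all genes was not computed, so this is not read as a trait of motor genes. Among summed marker lists, the same library was the lowest control for rod, cone, bipolar, amacrine, horizontal, Muller glia and pigment epithelium genes. Within these lists nr2e3, opn1lw1, lhx1a, rpe65a, dct, tyrp1b and tyr were each lower in another control library. Control library 7 was the highest control for the ganglion cell list through rbpms2b alone, at 176 FPKM. For isl2b, pou4f1, pou4f2 and neflb of that list it was the lowest control, at 7.44, 4.41, 5.21 and 2.12 FPKM.

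The kinesin-14 gene kif25 varied widely within the MeHg lineage. It was at 24.1, 19.6, 17.3, 8.06 and 21.6 FPKM in the control libraries and at 20.1, 17.6, 26.4, 54.1, 68.6 and 71.4 FPKM in MeHg libraries 2 to 7. MeHg libraries 5, 6 and 7 were above all others, and libraries 2, 3 and 4 lay in or near the control range. Skin and muscle transcripts also varied among these libraries: the summed skin list was at 1385, 2389.6, 2318, 1137, 64.9 and 39.5 FPKM and the summed muscle list at 312, 113, 59.9, 59.7, 18.7 and 3.54 FPKM in MeHg libraries 2 to 7. In the control libraries these sums ran from 922 to 4855 FPKM and from 41.3 to 343 FPKM. Their part in the kif25 levels was not tested. The log2 difference of 1.07 (standard error 0.41) did not pass (limma adjusted p = 0.134). The transcript of kifc3 was at 238, 175, 150.1, 79.4 and 147 FPKM in the control libraries and at 117, 116, 184, 241, 219 and 225 FPKM in MeHg libraries 2 to 7, again with libraries 5, 6 and 7 the highest of their lineage. For kif1b the MeHg libraries 2 to 7 were at 60.0, 50.1, 53.6, 74.0, 77.5 and 78.4 FPKM, and libraries 2, 5, 6 and 7 were above the highest control value of 56.0 FPKM. For kif19, whose mouse protein limits the length of motile cilia, MeHg values ran from 3.28 to 19.9 FPKM and control values from 3.11 to 15.5 FPKM.

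**Figure D5:**
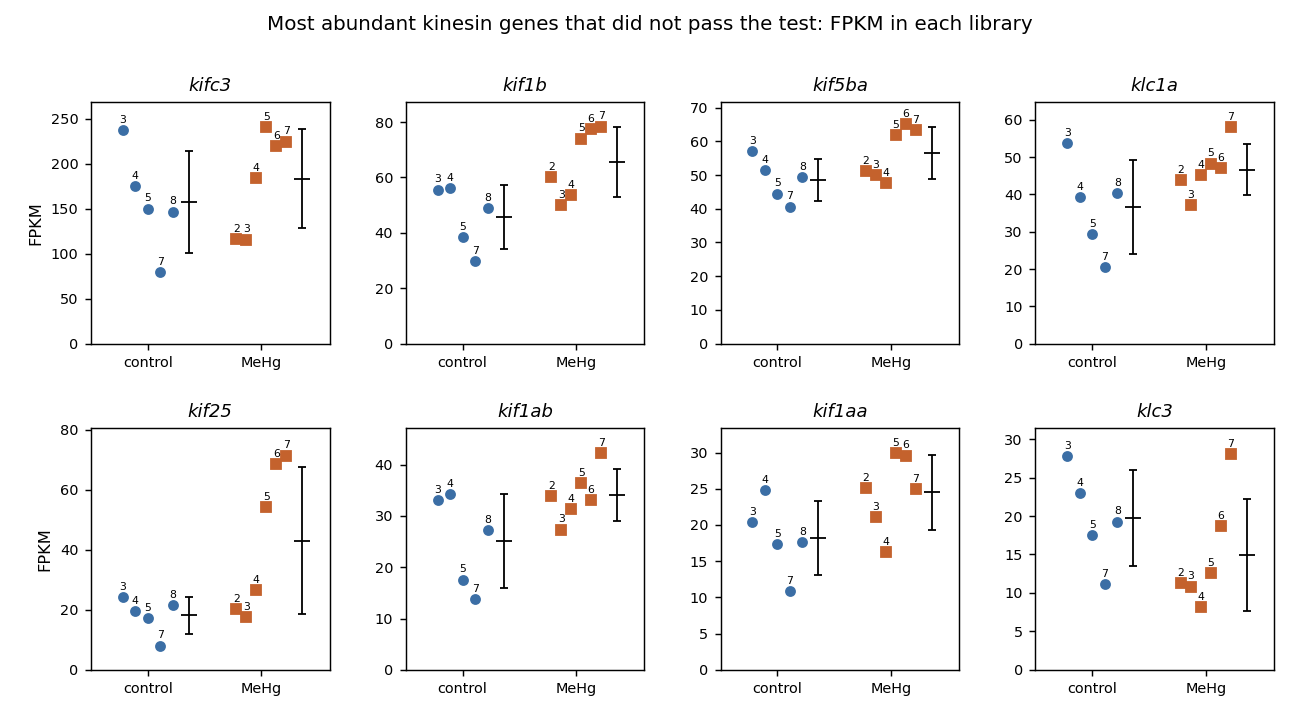
FPKM in each library of the 8 most abundant kinesin and kinesin light chain genes that did not pass the test, each panel starting at 0. Circles are control and squares MeHg libraries, labelled with the library number, and the bar beside each group is the mean with 1 SD. For kif25 MeHg libraries 5, 6 and 7 stand at 54.1 to 71.4 FPKM, above all other libraries.

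Whether paralogues moved apart was tested on the log2 ratio of their levels in each library, for 27 pairs within gene families, a test chosen after the values had been seen. With an exact permutation test over the libraries (two-sided, 462 arrangements, smallest possible p = 0.00216, Benjamini-Hochberg adjusted over the 27 pairs), 8 pairs passed. Of these, 3 contain kif26aa and restate its separation given above, so they are described without a p. The ratio of kif26aa to kif26ab was higher in the MeHg lineage by 2.34 on the log2 scale, that to kif26ba by 2.12 and that to kif26bb by 3.04. The other 5 pairs also include genes already called, save klc1a with klc3. Those with a called gene restate its call in part and are likewise described without a p. The ratio of kif13a to kif13bb was higher by 0.96 and that of kif13ba to kif13bb by 0.81. The log2 ratio of dynll1 to dynll2b was lower in the MeHg lineage, with a difference of -0.98. The remaining pairs were kif26ba with kif26bb (0.92) and klc1a with klc3 (0.83; exact p = 0.0108 unadjusted and 0.0365 adjusted). The adjusted value of klc1a with klc3 drew on the passing pairs that restate calls, so it is no separate support. Without control libraries 5 and 7, kif13ba with kif13bb and klc1a with klc3 no longer passed (adjusted exact p = 0.143 and 0.146). In that setting kif26ab with kif26bb and dynll1 with dynll2a did pass, and both pairs contain a gene already called.

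Among partners of the motors, of 16 tested kinesin adaptor genes 1 rose, where 5.47% of all genes did, and none fell. The median over the list was 0.22 on the log2 scale, and -0.0731 without control libraries 5 and 7. The gene that rose was kifap3b, which encodes the accessory subunit of the heterotrimeric kinesin-2, at 18.5, 17.8, 12.4, 10.1 and 16.02 FPKM in the control libraries and at 31.1, 27.4, 26.2, 33.9, 34.0 and 36.2 FPKM in MeHg libraries 2 to 7. The groups did not overlap, the log2 difference being 1.05 with a standard error of 0.17 (limma adjusted p = 0.00189), and 0.81 without control libraries 5 and 7 (limma adjusted p = 0.00433). The gene next by p, dennd4a, did not pass (log2 difference 0.72, limma adjusted p = 0.176). Of 10 tested genes of dynactin, the activator complex of dynein, none rose and 1 fell, beside 3.5% of all genes that fell. The median over the list was 0.16 on the log2 scale, and -0.00803 without control libraries 5 and 7. The gene that fell was capza1a, an actin capping gene (log2 difference -0.42, limma adjusted p = 0.0494, and 0.127 without control libraries 5 and 7). The gene next by p was dctn4, with a log2 difference of 0.33 (limma adjusted p = 0.262).

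Of 9 tested dynein regulators and cargo adaptors 2 rose and 1 fell, beside 5.47% and 3.5% of all genes. In the fit without control libraries 5 and 7, none rose and 1 fell. The cargo adaptor gene bicd1a rose (log2 difference 1.02, limma adjusted p = 0.0222), as did ndel1a, whose product binds dynein and LIS1 (log2 difference 0.87, limma adjusted p = 0.0455). Neither was called without control libraries 5 and 7 (limma adjusted p = 0.0623 and 0.130). The adaptor gene hook1 fell by 0.75 on the log2 scale (limma adjusted p = 0.0300), and by 1.02 without those libraries (limma adjusted p = 0.00224). Of 21 genes of axonemal dynein assembly and the motile cilium in the table, 3 were tested and 16 stayed below 1 FPKM in every library. Of these 3, 1 fell and none rose, beside 3.5% and 5.47% of all genes. The assembly factor gene dnaaf1 fell (log2 difference -1.39, limma adjusted p = 0.0234), while spag1a had a log2 difference of -0.40 (limma adjusted p = 0.334). When control libraries 5 and 7 were left out, 2 of 3 were called lower (all genes, 4.65%), dnaaf1 (-1.67, limma adjusted p = 0.0221) and spag1a (-0.77, limma adjusted p = 0.0368).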

How the data were processed

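Paired-end libraries of retinal RNA were read with 100 bases per read, per the labels' protocols. The deposited FPKM table holds a value per gene and library, made by the authors with CASAVA 1.8.2, cutadapt, FastQC, TopHat and Cuffnorm on genome build Zv9, per the submitters' processing notes. Not given in the sources used here were other versions, the annotation and strandedness. The companion table of the authors holds a signal, fragment numbers divided by a factor per library. Nearly all of its values were whole multiples of a step, with a tail of fractional values, so no count model was run and it served only for the implied fragments and depth. Each table had 1 value column with no name, used in no step, and control library 1 was not analysed here. Depth was 2838155 to 6749645 implied fragments per library, and low genes rest on few of them.

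Every gene that averaged 0.5 FPKM or more across all 11 libraries entered limma 3.58.1 (R 4.3.3; lmFit, eBayes with trend) on log2(FPKM + 1), with lineage as the only term and Benjamini-Hochberg adjustment over all genes tested at a threshold of 0.05. Fold changes are on this scale and understate the change of low genes. The code was tested on simulated data. The 20 alternatives were another pseudocount, filters, scalings, library weights, a block, and libraries left out. Genes were named where called, where they were the 2 most abundant or the 1 with the smallest p of their family, where mitotic, or where among the 2 smallest p of a partner list, and further genes were named as their paralogues or relatives. The members and lists were chosen with earlier results of these data known. Close gene copies may share fragments.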

Additional observations from a re-analysis of the deposited data

Results flagged for a closer look

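In 8 of 104 groups of libraries (52 tested genes in each of the lineages) the highest or lowest library stood far from the nearest of the others. The measure was Dixon's gap relative to the range, where chance gives about 5%. Several mitotic kinesins were flagged in the same library, so the groups are not independent and the count is no test against that rate. MeHg library 4 was the high one for the mitotic kinesins kif4 (0.996 FPKM, the other MeHg libraries at most 0.353 FPKM), kif11 (3.32 FPKM, others at most 0.834 FPKM), kif20a (1.47 FPKM, others at most 0.542 FPKM) and kifc1 (3.19 FPKM, others at most 0.701 FPKM). MeHg library 2 was low for kif18a (0.321 FPKM, others at least 0.668 FPKM), and MeHg library 7 high for the dynein light chain gene dnal4b (25.6 FPKM, others at most 13.7 FPKM). The kif18a value rested on 7 implied fragments, with 5 to 13 in the other MeHg libraries. In implied fragments MeHg library 7 was not the highest for dnal4b, at 43 against 25 to 90 in the other MeHg libraries. The cause of this disagreement was not tested. In the control lineage, library 7 was low for klc4 (3.11 FPKM, others at least 7.17 FPKM) and library 3 high for kif1c (9.33 FPKM, others at most 6.45 FPKM). That kif1c value rested on 17 implied fragments.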

How the results depend on the processing

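Low levels limit the axonemal and mitotic genes, and leaving out libraries changes the counts. Leaving out 1 library at a time gave 6 to 9 called motor genes (4 to 7 higher, 2 to 3 lower) and 1177 to 1905 called genes in all. With control library 5, or MeHg library 2 or 7, left out, 6 motor genes were called, 4 of them higher, and with control library 7 or 8, or MeHg library 6, left out, 5 were called higher. The number higher was also 5 with no filter on level, with array weights, and without control libraries 5 and 7. Of the called genes, kif26aa and dynll1 were called in all 20 alternatives. The lineages share library numbers 3, 4, 5 and 7. Same-numbered libraries had correlations of their deviations of -0.20, -0.23, -0.01 and -0.13. These values are few and do not settle whether the numbers pair the samples. With the number as a replicate block, 199 genes and 2 motor genes were called (1 higher, kif26aa, and 1 lower, dynll1), and in the same 8 libraries with no replicate block 784 genes and 4 motor genes (3 higher, 1 lower). The planned count models were not run, because whole fragment numbers could not be recovered for all values. No gene whose log2 difference changed sign was called in either fit. With trimmed mean rescaling it was -0.0575 for kif1c, -0.0342 for dynlrb1, -0.0179 for dynlt1 and -0.00627 for dnal4b. With quantile normalization it was 0.0448 for kif26bb, and with array weights -0.0742 for kif1c and -0.0380 for dynlt1. Without control libraries 5 and 7 it was -0.0115 for kif5c, -0.12 for kif3cb, -0.0356 for kif1c, 0.0960 for kif11, 0.14 for kif23, 0.12 for kifc1, -0.0560 for kifc3, -0.10 for dync1i1, -0.0208 for dynlrb1, -0.26 for dynlt1, -0.0401 for dnal1 and -0.20 for dnal4b. In the 8 libraries, with and without the replicate block, it was -0.0727 for kif3cb, -0.10 for kif1c, -0.0261 for dynlrb1, -0.0223 for dynlt1 and -0.00415 for dnal4b. Over single libraries left out it ranged from -0.30 to 0.0246 for klc4, -0.49 to 0.0119 for kif19, -0.15 to 0.12 for kif26bb, -0.0631 to 0.29 for dnal1, -0.11 to 0.12 for kif1c, -0.11 to 0.35 for dnal4b, -0.0771 to 0.19 for kif3cb, -0.0444 to 0.16 for dynlrb1 and -0.18 to 0.21 for dynlt1. The cause of these changes was not tested.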

Other observations

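Among motor genes that the deposited table leaves without a symbol, the reference list named 7, and 4 of them were tested. Of these 4, 1 rose and none fell, beside 5.47% and 3.5% of all genes, and a single gene is no result about them. The gene that rose was kif21b, a paralogue of kif21a. It was at 4.29 ± 1.38 FPKM (n = 5, SD) in the control and 7.89 ± 1.65 FPKM (n = 6, SD) in the MeHg lineage. The log2 difference was 0.77 with a standard error of 0.21 (limma adjusted p = 0.0369, and 0.161 without control libraries 5 and 7). The heavy chain gene of cytoplasmic dynein-1, dync1h1, was at 23.1 ± 3.92 FPKM (n = 5, SD) and 29.0 ± 5.99 FPKM (n = 6, SD) (limma adjusted p = 0.260). The kinesin-2 gene kif3c had a log2 difference of 0.63 (limma adjusted p = 0.179), and dync2i1, a dynein-2 intermediate chain gene, one of 0.12 (limma adjusted p = 0.743).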
